A study of Homo sapiens with 8 samples.

Results

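The response of the colorectal cancer (CRC) line HCT8 to hypoxia was described from 1 untreated library and 1 library of cells kept under hypoxia. HCT8 is an epithelial tumor line that the study's methods give as wild-type for p53 and mutant for APC. Genes were kept when at least 1 of the 2 libraries held 50 or more counts, which left 15214 of the 54261 genes in the table. The limit fell among weakly counted genes: the 52 genes with exactly 50 counts in the higher library had a median log2 ratio of 0.39, and the 49 genes with 49 counts had 0.37.

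The study sequenced total RNA after removal of ribosomal RNA from 5 untreated cell lines, 2 of normal intestinal epithelium (NCM460 and HIEC6) and 3 of CRC (DLD1, HCT116 and HCT8), and from the 3 CRC lines under hypoxia. Every line was at passage 5 in DMEM with 10% fetal bovine serum, and the labels name no transgene or further agent. Each condition of a line was 1 library. The oxygen level and the length of exposure are not given in the sources used here, and neither is whether a library came from 1 dish or several.

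The HCT8 libraries held 52653542 counts (untreated) and 45519306 counts (hypoxia), against 51213432 to 57374239 in the DLD1 and HCT116 libraries. With 1 library a side, no p-value, standard error or test could be given for the HCT8 change on its own, and the values below compare these 2 libraries. A ratio is the hypoxia value over the untreated value of TMM-scaled counts, on the log2 scale, and its 95% interval (exact, conditional on the summed count) covers counting error only. The median half-width of that interval was 0.59 for genes with 50 to 100 counts and 0.035 for genes with over 10000 counts. The HCT8 libraries carried different run labels, so that run and treatment cannot be told apart. The DLD1 and HCT116 hypoxia libraries carried a second run label that the HCT8 hypoxia library did not have.

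Cells sense oxygen through prolyl hydroxylases of the EGLN family, which use oxygen and 2-oxoglutarate to mark the alpha subunits of the hypoxia-inducible factors (HIF) for destruction by the VHL ubiquitin ligase. When oxygen is low the alpha subunits persist, pair with ARNT and bind DNA at a core of ACGTG or GCGTG. Their best known targets move glucose into glycolysis and lactate, restrain mitochondrial respiration, promote vessel growth and include the EGLN enzymes themselves.

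The 3 genes that mark the response were all far higher in HCT8 under hypoxia. UCA1, a long noncoding RNA described in many carcinomas, had 240 counts untreated and 10740 under hypoxia, a log2 ratio of 5.70 (5.52 to 5.90). NDRG1, a growth-arrest and stress gene, had 2586 and 53506 counts and a ratio of 4.59 (4.54 to 4.65). ANGPTL4, a secreted inhibitor of lipoprotein lipase, had 184 and 4589 counts and a ratio of 4.86 (4.65 to 5.08). The same genes had log2 ratios of 3.37 to 4.66 in DLD1 and 3.01 to 7.18 in HCT116. They were chosen as markers with results of these libraries known, so their ratios are a description and no check of the label.

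The cells also carried the epithelial identity of the label in both conditions. KRT8, a keratin of simple epithelia, had 161341 counts untreated and 230204 under hypoxia, and EPCAM, a surface protein of epithelial cells, had 19381 and 15086. CDX2, the transcription factor of intestinal identity, had 15531 and 18275 counts. KRT20, a keratin of differentiated colonocytes, was nearly absent, with 10 counts untreated and 0 under hypoxia. Of 16 markers of other cell types, 8 had at most 3 counts in both HCT8 libraries, among them PTPRC (leukocytes), CDH5 (endothelium) and HBA1 (erythrocytes). Another 6 reached 50 counts, among them LYZ, COL1A2 (66 untreated and 21 under hypoxia) and COL3A1 (56 and 44). The 16 summed to 747 and 893 counts.

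Short stretches of 4 promoters are shown because they belong to genes with the largest ratios in HCT8 and hold the core ACGTG. They were read from RefSeq (GRCh38.p14) on the strand of the gene, 5′ to 3′, each ending before the transcription start, and capitals mark ACGTG on either strand (CACGT when on the opposite one).
ANKRD37, chr4:185396673-185396727, plus strand: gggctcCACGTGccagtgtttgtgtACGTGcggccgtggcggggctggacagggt
HIF1A-AS3 (LOC105370526 in the count table), chr14:61751147-61751201, minus strand: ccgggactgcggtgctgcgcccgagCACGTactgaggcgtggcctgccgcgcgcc
ANGPTL4, chr19:8363905-8363950, plus strand: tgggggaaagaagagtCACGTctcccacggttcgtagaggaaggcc
MIR210HG, chr11:568598-568652, minus strand: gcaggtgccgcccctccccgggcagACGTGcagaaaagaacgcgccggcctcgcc
A promoter of 300 bases (250 before and 50 after the start) was found for 11097 of the 15214 genes, by symbol or through an older symbol. ACGTG was present on either strand in 26.6% of those promoters and in 21.6% of all 27305 promoters of the reference table. Among genes at least 2-fold higher in HCT8 the share was 25.2% (227 of 901), among those at least 2-fold lower 30.8% (184 of 597), and among those at least 2-fold higher in all 3 lines 41.7% (53 of 127). The share was as high among genes lower in HCT8 alone, defined further on (41.9%, 26 of 62), and it was 32.3% (10 of 31) among those at least 2-fold lower in all 3 lines and 22.9% (11 of 48) among those higher in HCT8 alone. When GCGTG was searched as well, the shares were 62.8% of all genes kept, 55.0% of the higher, 63.2% of the lower and 65.4% of those higher in all 3 lines. A match of letters is not a binding site, and these shares describe the sequences.

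In the HCT8 pair 1394 genes (9.16% of 15214) were at least 2-fold higher under hypoxia and 970 (6.38%) were at least 2-fold lower. Each HCT8 count of list genes below is to be read beside these 2 shares. At least 4-fold differences were found for 353 higher and 115 lower genes, and at least 8-fold differences for 115 higher and 18 lower genes. Most genes moved little: 65.7% lay within 1.5-fold, and the median log2 ratio was -0.01. When the whole counting interval had to lie past 2-fold, 834 genes were higher and 555 lower. The plot of ratio against count shows that the higher genes reach into the most abundant transcripts, with LDHA and ALDOC among them.

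**Figure D1:**
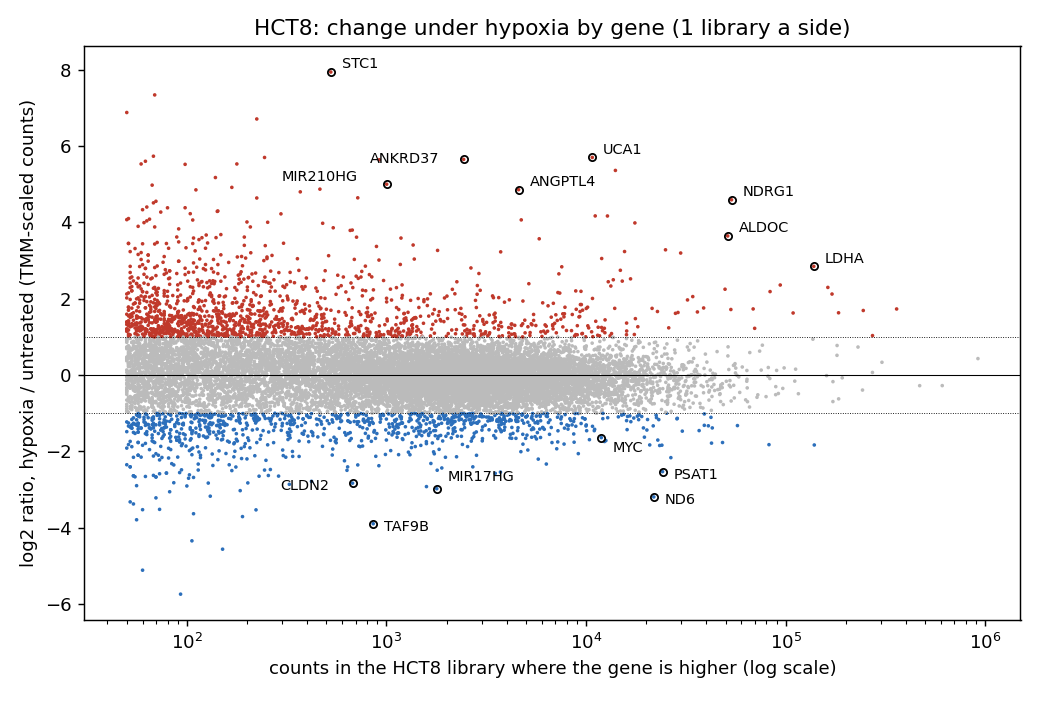
Log2 ratio of hypoxia over untreated for each of the 15214 HCT8 genes, against the count in the library where the gene is higher (log axis). Red points are at least 2-fold higher (1394), blue at least 2-fold lower (970), grey the rest, dotted lines mark 2-fold, and circles mark genes named in the text, from STC1 at 7.94 to TAF9B at -3.90.

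The genes whose counting interval lay farthest above 0 were led by STC1 (stanniocalcin 1, a secreted glycoprotein), with 2 counts untreated and 526 under hypoxia, a log2 ratio of 7.94 with a wide interval of 6.40 to 11.31. ANKRD37, a small ankyrin-repeat protein and known HIF target, had 56 and 2435 counts (5.65). LOC645553, listed by RefSeq as IGFL2-AS1, a long noncoding RNA, had 397 and 14022 counts (5.36). Antisense transcripts of the HIF1A locus were among them: HIF1A-AS2 had 21 and 920 counts (5.64), and LOC105370526 (HIF1A-AS3) had 2 and 224 (6.71, interval 5.16 to 10.08), while HIF1A itself had 5917 and 5742 (0.18). These transcripts overlap HIF1A and each other in RefSeq, and whether counting used strand is not given in the sources used here, so the split of reads among them is uncertain. MIR210HG, the host transcript of the hypoxia microRNA miR-210, had 36 and 1002 counts (5.00). PPP1R3G, a glycogen-targeting subunit of protein phosphatase 1, had 18 and 464 counts (4.87). The last 2 of these 12 genes were LOC105378570, with 5 and 245 counts (5.70), and LOC102723750 (CLK3-AS1), with 33 and 718 counts (4.64).

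Only 2 of the genes kept had no count in one HCT8 library, in both cases the untreated one. PPP1R3C, another glycogen-targeting phosphatase subunit, had 0 and 50 counts, at least 19.4-fold higher against a floor of 3 counts in the untreated library. The noncoding LOC63930 had 0 and 69 counts, at least 26.8-fold higher. Both were picked out after their values were seen.

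Among the established HIF targets, 32 of 35 reached 50 counts in HCT8, of which 28 were at least 2-fold higher and 1 was at least 2-fold lower, with a median log2 ratio of 2.53 against -0.01 over all genes kept. CA9, the carbonic anhydrase that exports acid, had only 4 counts untreated and 178 under hypoxia (5.53, interval 4.32 to 7.59). EGLN3, the oxygen-sensing hydroxylase that is itself a HIF target, had 571 and 5823 counts (3.57). VEGFA, the vascular growth factor, had 3068 and 9467 counts (1.85). The mitophagy receptor BNIP3L had 3782 and 29767 counts (3.20), whereas its relative BNIP3 was nearly absent from HCT8, with 0 and 1. LOX, a collagen cross-linking oxidase, had no count in either library, and STC2 had 10 and 9. NDUFA4L2, a respiratory-chain protein that HIF induces in other cells, was the 1 target past 2-fold in the lower direction, with 69 counts untreated and 17 under hypoxia (-1.77).

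The sensors and subunits of the pathway themselves differed less. Of 10 genes, 8 reached 50 counts, and EGLN3 and EGLN1 (6297 and 12084 counts, 1.16) were the 2 past 2-fold. HIF1A was at 0.18, EPAS1 (HIF-2 alpha) had 1558 and 2240 counts (0.74), and ARNT, their partner, had 3408 and 4506 (0.62). VHL had 6351 counts untreated and 3718 under hypoxia (-0.55). More broadly, 10 of 22 oxygenases that use 2-oxoglutarate, a family that includes the collagen hydroxylases and the JmjC histone demethylases, were at least 2-fold higher, and 0 were at least 2-fold lower. The shares over all genes kept were 9.16% and 6.38%. PLOD2, a lysyl hydroxylase of collagen, had 2996 and 24994 counts (3.28), P4HA1, a prolyl hydroxylase of collagen, had 2581 and 14846 (2.75), and KDM3A, a histone H3K9 demethylase, had 2764 and 12912 (2.44).

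Genes of nearly every step of glycolysis were higher. Of 24 genes of glycolysis, lactate and glycogen, all with 50 or more counts, 21 were at least 2-fold higher, against 9.16% of all genes kept. In this list 0 were at least 2-fold lower, and the median log2 ratio was 1.73. The glucose transporter SLC2A3 had 719 counts untreated and 11108 under hypoxia (4.17), and the more abundant SLC2A1 had 24094 and 68679 (1.73). Aldolase C (ALDOC) had 4770 and 51201 counts (3.65), PGK1, the phosphoglycerate kinase, had 21326 and 93881 (2.36), and LDHA, which makes lactate, had 22384 and 138251 (2.85). PDK1, a kinase that inhibits pyruvate dehydrogenase, had 1291 and 17555 counts (3.99). LDHB, the subunit that favours the return of lactate to pyruvate, had 44046 and 28553 (-0.40), and PFKM had 5986 and 6227 (0.28). GAPDH, commonly taken as a loading reference, was not constant in these libraries, with 126172 and 359415 counts (1.73).

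**Figure D2:**
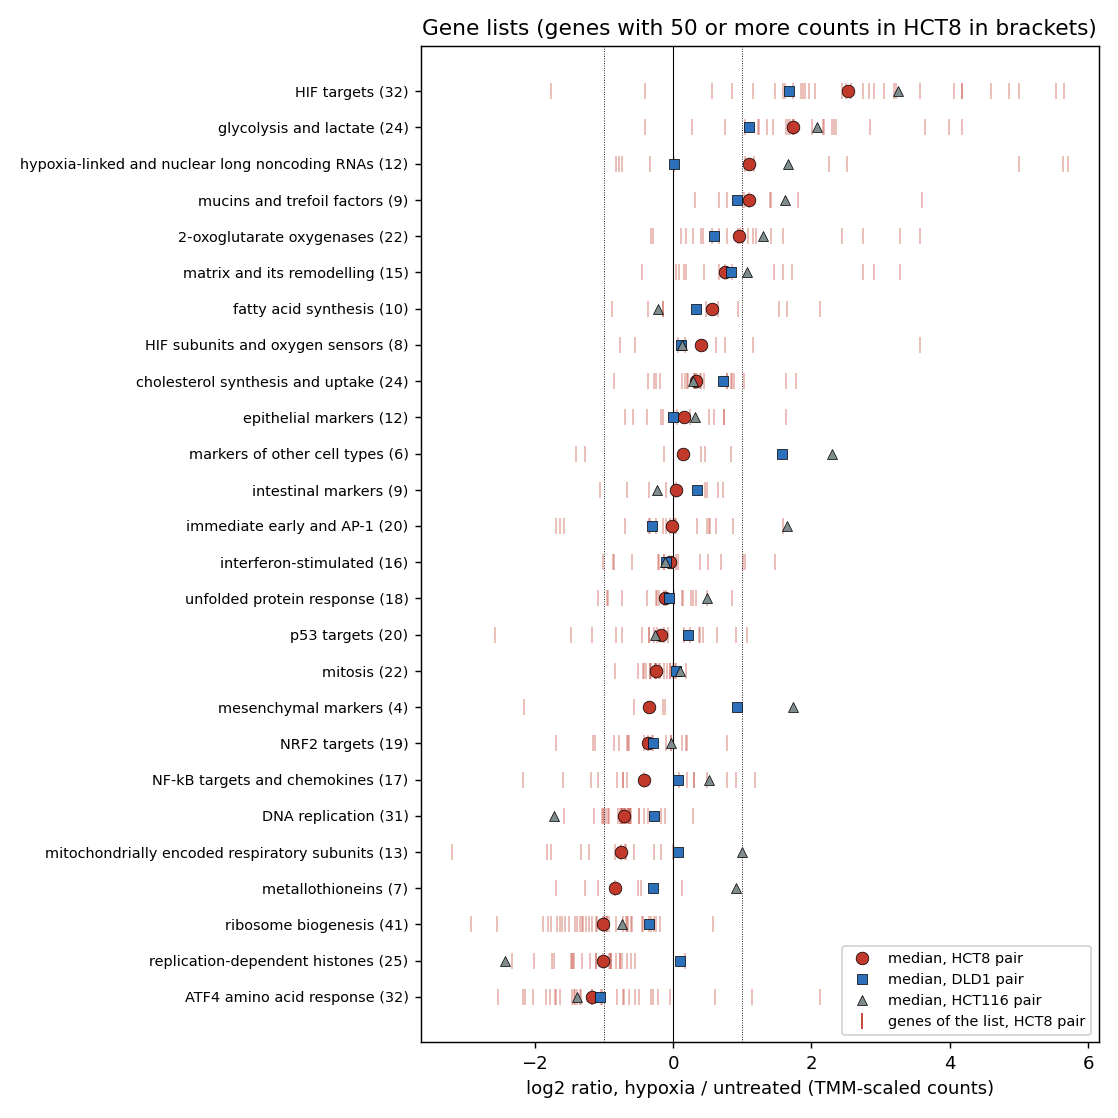
Median log2 ratio of each gene list in the HCT8, DLD1 and HCT116 pairs, with a red tick for each list gene in HCT8 and the number of list genes with 50 or more HCT8 counts in brackets. In HCT8 the medians run from -1.17 for the ATF4 amino acid response to 2.53 for the HIF targets, and dotted lines mark 2-fold.

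The amino acid response driven by the transcription factor ATF4 was lower. All 32 of its genes reached 50 counts, of which 19 were at least 2-fold lower and 2 at least 2-fold higher, with a median log2 ratio of -1.17. Among all genes kept 6.38% were lower and 9.16% higher by that measure. PSAT1, an enzyme of serine synthesis, had 24147 counts untreated and 3585 under hypoxia (-2.53), and ASNS, asparagine synthetase, had 26585 and 5088 (-2.16). The amino acid transporters SLC7A5 (42491 and 10589 counts, -1.78) and SLC1A5 (23973 and 5753, -1.84) were lower as well, and so was ATF4 itself (39107 and 16555, -1.02). The 2 exceptions were VLDLR, a lipoprotein receptor also known as a HIF target, with 764 and 2845 counts (2.12), and ALDH1L2 with 50 and 95 (1.14). The unfolded protein response, another branch of the same stress signalling, had 1 of 18 genes at least 2-fold lower, near the share of all genes kept. It had 0 at least 2-fold higher, and its median was -0.12.

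Most lipid genes stayed within 2-fold. Of 10 fatty acid synthesis genes with 50 or more counts, 3 were at least 2-fold higher and 0 at least 2-fold lower. They were SCD, the stearoyl-CoA desaturase, with 45655 and 170587 counts (2.12), SREBF1, the lipogenic transcription factor, with 13380 and 36108 (1.65), and ACSS2, which makes acetyl-CoA from acetate, with 3741 and 9292 (1.53). In cholesterol synthesis and uptake 3 of 24 were at least 2-fold higher, a share near the 9.16% of all genes kept, among them STARD4, a sterol carrier, with 3459 and 10175 counts (1.78) and INSIG1, a sterol sensor, with 10800 and 28865 (1.64), and 0 were at least 2-fold lower.

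Among lists of the cell cycle the replication-dependent histones had the most genes past 2-fold, and the mitosis genes had 0. Of 31 DNA replication genes 5 were at least 2-fold lower (GINS3, TYMS, MCM10, UHRF1 and POLA1) and 0 at least 2-fold higher, and 30 of the 31 ratios were negative, with a median of -0.71. MCM2, a subunit of the replicative helicase, had 13997 and 7408 counts (-0.70), and PCNA, the sliding clamp, had 18414 and 8070 (-0.97). Of 25 replication-dependent histones with 50 or more counts 13 were at least 2-fold lower, with a median of -1.01, and HIST1H4A had 6321 and 1077 counts (-2.33). In contrast, 0 of 22 mitosis genes passed 2-fold in either direction, with a median of -0.25, and MKI67, the common proliferation marker, had 36091 and 30041 counts (-0.04, and just above 0 with upper-quartile scaling). Some reads of near-identical histone copies may be shared among them, since the handling of reads with several matches is not given in the sources used here.

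Ribosome biogenesis, a list put together after values such as that of RRS1 had been seen, had 21 of 41 genes at least 2-fold lower and 0 at least 2-fold higher in HCT8. Its median log2 ratio was -1.01. RRS1, a regulator of ribosome assembly, had 1586 counts untreated and 179 under hypoxia (-2.92), URB2, a nucleolar protein of large-subunit assembly, had 3723 and 548 (-2.54), and DKC1, the pseudouridine synthase of ribosomal RNA, had 7755 and 1899 (-1.81). FBL was the 1 gene of the list with a positive ratio, at 252 and 323 counts (0.58). MYC, the transcription factor best known for driving this program, had 11916 and 3282 counts (-1.64). MIR17HG, the host of the miR-17-92 cluster and a known MYC target, had 1786 and 194 (-2.98). In DLD1 the ratios of RRS1, URB2, MYC and MIR17HG were -0.91, -0.52, -0.30 and -0.70. In HCT116 they were -2.70, -2.16, 0.44 and -1.27. The part of MYC in the ribosome biogenesis ratios was not tested.

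**Figure D3:**
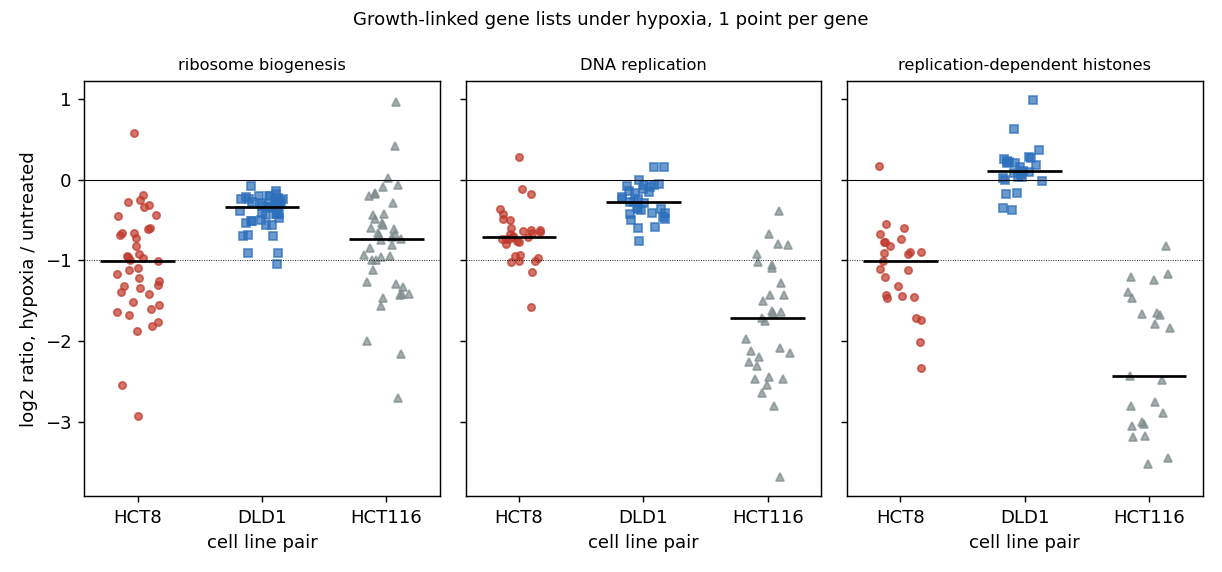
Log2 ratio of each gene of 3 growth-linked lists in the 3 pairs, with black bars at the medians and a dotted line at a 2-fold lower value. For ribosome biogenesis the medians were -1.01 in HCT8, -0.34 in DLD1 and -0.73 in HCT116, and the order of the lines differs in the DNA replication and histone panels.

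The genes whose counting interval lay farthest below 0 included several further functions. TAF9B, a subunit of the general transcription factor TFIID, had 858 counts untreated and 49 under hypoxia (-3.90). CLDN2, a pore-forming claudin of tight junctions, had 676 and 81 counts (-2.83), and AEN, a nuclease induced by p53, had 3506 and 504 (-2.58). DUSP2, a phosphatase that inactivates MAP kinases, had 421 and 52 counts (-2.78), BEND3, a chromatin repressor, had 1795 and 273 (-2.49), and LOC107984617 had 222 and 16 (-3.53). The other 6 of these 12 were RRS1, URB2, PSAT1 and MIR17HG, given above, and the mitochondrial ND6 and TRNP. Some of the 12 were at least 2-fold lower in other lines as well. TAF9B was at -1.11 in DLD1 and -1.34 in HCT116. CLDN2, DUSP2 and BEND3 were at -2.32, -1.23 and -1.90 in HCT116, but at 0.63, -0.88 and -0.83 in DLD1. AEN was at -0.66 in DLD1 and -0.47 in HCT116, and LOC107984617 at -0.54 and 0.27.

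Transcripts of the mitochondrial genome were lower as a group. Of the 13 respiratory subunits it encodes, 5 were at least 2-fold lower in HCT8, 0 at least 2-fold higher, and all 13 ratios were negative, from -3.19 to -0.01, with a median of -0.74. The ratio of ND5, at -0.01, turned positive with DESeq2 or upper-quartile scaling, which moved the HCT8 ratios by 0.02 and 0.08. ND6, a subunit of complex I, had 21834 counts untreated and 2047 under hypoxia (-3.19), CYTB of complex III had 82443 and 19983 (-1.82), ND2 had 48248 and 12154 (-1.77) and ND1 had 57306 and 19636 (-1.32). COX1 of complex IV, the most abundant, had 468828 and 331676 (-0.28). Together these 13 transcripts took 2.39% of all counts untreated and 1.65% under hypoxia. In bulk RNA fewer mitochondrial genomes per cell and less transcript from each cannot be told apart.

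ND6 is the 1 subunit encoded on the light strand of the mitochondrial genome, together with 8 tRNAs, and those rows were examined after its value was seen. TRNP, the proline tRNA, had 326 and 38 counts (-2.86). The remaining light-strand tRNAs were thinly counted, with 247 counts untreated and 14 under hypoxia in sum, TRNQ going from 106 to 4 and TRNA from 93 to 1, and TRNN and TRNC at 0 in both. Over the 8 tRNAs the summed counts were 573 and 52 in HCT8 (-3.24), 468 and 614 in DLD1 (0.26), and 1711 and 1299 in HCT116 (-0.12). Most HCT116 hypoxia counts were those of TRNP (710 and 935, 0.67). Without TRNP the sums were 238 and 220 in DLD1 (-0.24) and 1001 and 364 in HCT116 (-1.19), against -3.92 in HCT8, so that these tRNAs were lower in HCT116 as well. Without stated strand in the counting, reads of the light strand cannot be told apart from those of the opposite strand.

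**Figure D4:**
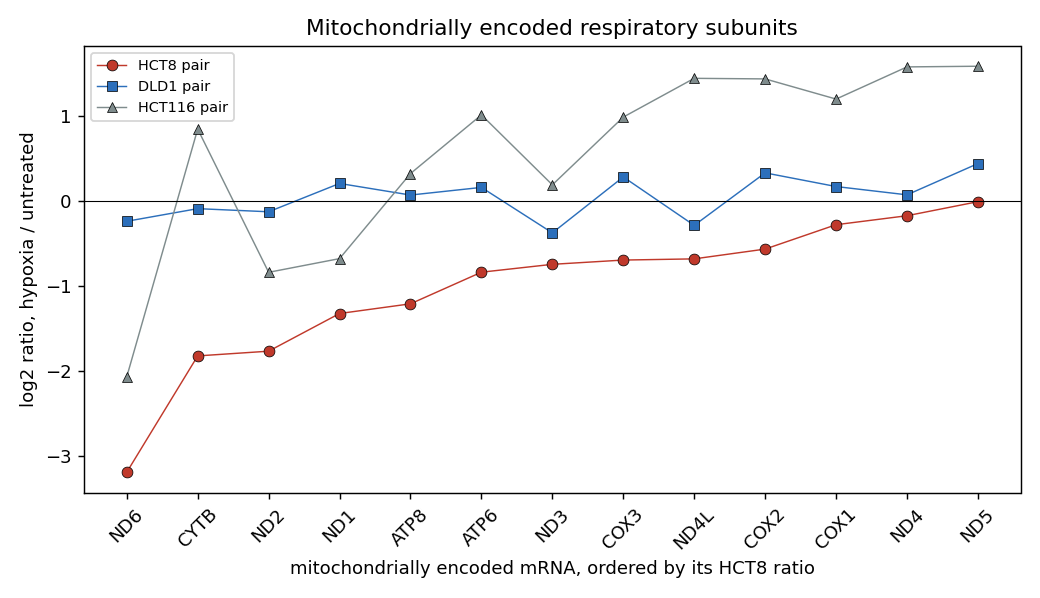
Log2 ratio of the 13 mitochondrially encoded mRNAs in each pair, ordered from ND6 to ND5 by their HCT8 ratio. The HCT8 points lie at or below 0, the DLD1 points between -0.37 and 0.44, and the HCT116 points between -2.07 and 1.59.

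In the other pairs the same 13 transcripts had medians of 0.07 (DLD1) and 0.99 (HCT116), and in DLD1 0 were past 2-fold in either direction. The background differed between lines, since 5.77% of 14653 genes were at least 2-fold higher and 1.99% at least 2-fold lower in DLD1, against 12.1% and 13.6% of 14925 genes in HCT116. ND6 was also lower in HCT116, with 68276 and 13461 counts (-2.07), and close to its untreated level in DLD1, with 13270 and 12318 (-0.24). The HCT116 pair was the most sensitive to scaling: with total counts in place of TMM all its ratios were lower by 0.36, while those of HCT8 moved by 0.01. Under any of the scalings tried, therefore, the mitochondrial median was higher in HCT116 than in HCT8.

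The lists with the largest HCT8 medians had the same sign in the other lines. HIF targets were at 1.67 in DLD1 (23 of 31 at least 2-fold higher) and 3.26 in HCT116 (31 of 34), glycolysis at 1.10 and 2.08, and the ATF4 response at -1.05 and -1.38. HCT8 lay between the other lines in each of the 3. For DNA replication the medians were -0.71 in HCT8, -0.27 in DLD1 and -1.71 in HCT116, and for histones -1.01, 0.10 and -2.43. Immediate early and AP-1 genes had a median of -0.02 in HCT8 and -0.30 in DLD1 but 1.65 in HCT116. At least 2-fold higher were 13 of 20 in HCT116, 0 of 19 in DLD1 and 1 of 20 in HCT8. The 1 in HCT8 was DUSP5, a nuclear MAP kinase phosphatase, at 1.59. At least 2-fold lower were 0 in HCT116, 2 in DLD1 and 3 in HCT8 (FOSL1 at -1.69, MYC at -1.64 and EGR3 at -1.58). Over all genes kept, 12.1% in HCT116, 5.77% in DLD1 and 9.16% in HCT8 were at least 2-fold higher. The shares at least 2-fold lower were 13.6%, 1.99% and 6.38%.

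Of the HCT8 genes at least 2-fold higher, 890 also reached 50 counts in DLD1 and 924 in HCT116. Of them 338 (38.0%) and 453 (49.0%) were at least 2-fold higher there, where 5.77% and 12.1% of all genes were. Seen from the other lines, 51.6% of the DLD1 genes and 33.7% of the HCT116 genes at least 2-fold higher, among those kept in HCT8, were so in HCT8. The share over all genes kept in HCT8 was 9.16%. Of the lower genes 93 of 863 (10.8%) were at least 2-fold lower in DLD1, where 1.99% of all genes were, and 378 of 806 (46.9%) in HCT116, where 13.6% were. From the other side, 42.1% of the DLD1 genes and 20.6% of the HCT116 genes at least 2-fold lower were so in HCT8, where 6.38% of all genes were. Over the 12868 genes with 50 or more counts in all 3 pairs, 168 (1.31%) were at least 2-fold higher in every line and 44 (0.342%) at least 2-fold lower in every line. Across those genes the Pearson correlation of the log2 ratios was 0.59 between HCT8 and DLD1, 0.53 between HCT8 and HCT116 and 0.43 between DLD1 and HCT116, a description across genes, which are not replicates.

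A set of genes moved in HCT8 while both other lines stayed within 0.5 on the log2 scale: 70 genes were higher (0.544% of 12868) and 111 lower (0.863%). DPYSL3, a cytoskeletal protein of the dihydropyrimidinase family, led the higher ones with 70 and 277 counts in HCT8 (2.20), against 3168 and 3933 in DLD1 (0.18) and 2532 and 2156 in HCT116 (0.04). H1F0, the linker histone of non-dividing cells, was the most abundant with 4828 and 13912 counts (1.75), against 0.37 in DLD1 and -0.04 in HCT116. TUBA1A, an alpha tubulin, had 1336 and 3041 counts (1.41), MAOA, the mitochondrial monoamine oxidase, had 135 and 307 (1.40), and CEP126, a centrosomal protein, had 94 and 245 (1.60). ECH1, a peroxisomal enzyme of fatty acid oxidation, had 134 and 469 (2.02). The remaining 4 of the 10 largest were GAS6-AS2, LOC100128288, C2orf81 and LOC284581, with ratios from 1.46 to 1.85. In the other lines some of the 10 lay near the edge of the window. MAOA was at 0.45 in DLD1 and 0.49 in HCT116, and C2orf81 at 0.48 and 0.42, whereas LOC100128288 was at -0.20 and -0.18. ECH1 had 61 and 74 counts in DLD1 and 58 and 58 in HCT116, with intervals reaching 0.66 and 0.82. In DLD1 GAS6-AS2 had 38 and 53 counts (interval -0.28 to 0.99) and MAOA 42 and 63 (-0.13 to 1.05). LOC100128288 had 63 and 60 counts in DLD1 and 81 and 59 in HCT116, with intervals reaching -0.74 and -0.69. For such genes counting error alone could place the other lines outside the window. Reads at LOC100128288, C2orf81, CEP126, DPYSL3 and ECH1 may be split with genes whose spans overlap theirs in RefSeq.

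MYC stood out among the 111 lower genes by abundance, with ratios of -1.64 in HCT8, -0.30 in DLD1 (7439 and 6610 counts) and 0.44 in HCT116 (21652 and 24344 counts). VGF, a neuroendocrine secreted protein, had the lowest ratio, with 230 and 31 counts in HCT8 (-2.65) against -0.37 in DLD1 and -0.18 in HCT116. CYP27B1, which makes active vitamin D, had 204 and 53 counts (-1.71), SLC6A20, an amino acid transporter of the gut and kidney, had 5056 and 1456 (-1.57), and MCOLN2, an endolysosomal cation channel, had 338 and 72 (4.01-fold lower). STAMBPL1, a deubiquitinase, had 428 and 122 counts (-1.59) and ECE2, an endothelin-converting enzyme, had 546 and 151 (-1.63). The small nucleolar RNA SNORA16A (254 and 61, -1.83), ANKRD13B (840 and 216, -1.74) and the helicase DDX24 (655 and 171, -1.71) completed the 10. The HCT116 scaling bears on this group. With total counts 7 of the 10 (VGF, SNORA16A, ANKRD13B, CYP27B1, DDX24, ECE2 and SLC6A20) had HCT116 ratios below -0.5 and no longer met the rule, VGF at -0.54, and with DESeq2 scaling MYC and MCOLN2 no longer met it. Of the 10 higher genes, total counts removed 1 and DESeq2 scaling 2. SNORA16A lies within SNHG12, ECE2 within a read-through gene, and DDX24, STAMBPL1 and SLC6A20 overlap other genes in RefSeq.

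**Figure D5:**
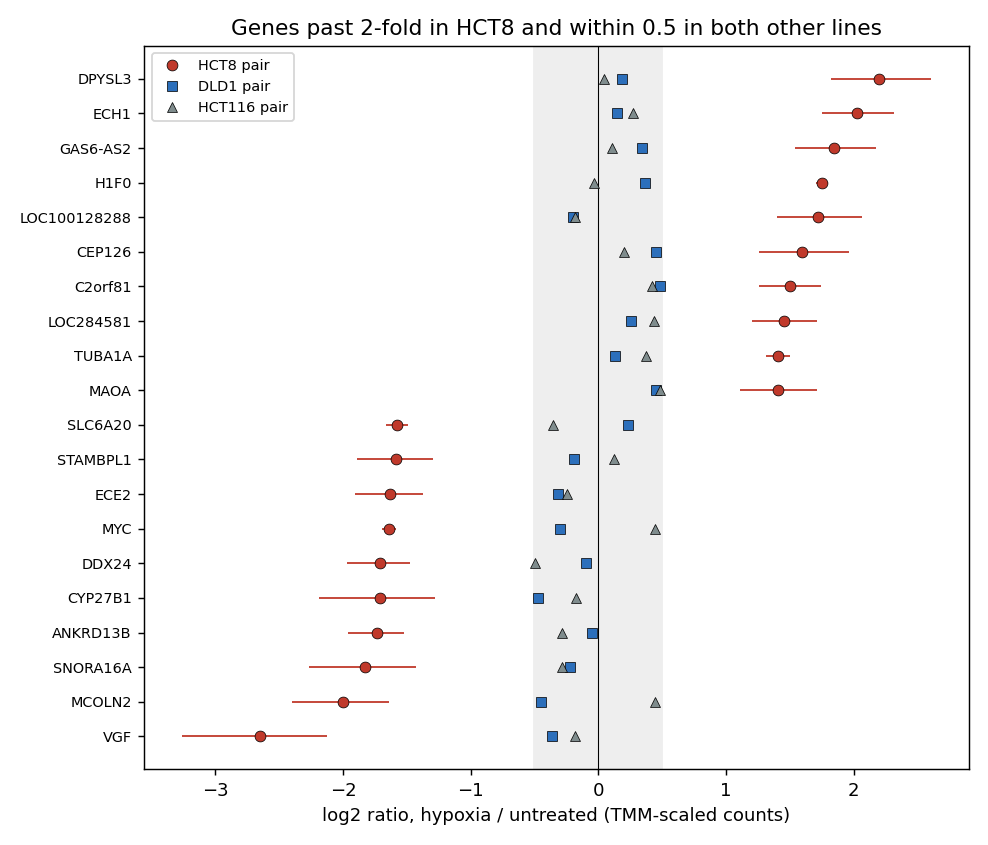
Log2 ratios of the 10 higher and 10 lower genes with the largest HCT8 change among those within 0.5 (grey band) in both other lines, with red bars for the 95% counting interval in HCT8. The HCT8 values run from -2.65 (VGF) to 2.20 (DPYSL3), and every DLD1 and HCT116 value lies in the band because the genes were chosen that way.

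These counts come from a size rule and are no test. The difference between lines was tested with edgeR's quasi-likelihood test of the HCT8 change against the mean change of DLD1 and HCT116, with the line as a block, which called 0 of 21045 genes (0%) at an adjusted p under 0.05, with 327 genes at an unadjusted p under 0.05. It rested on 1 residual degree of freedom and a coefficient of variation of 0.32. That spread came from the difference between the DLD1 and HCT116 changes, shared over genes, and the HCT8 pair was assumed to vary likewise. No gene is therefore shown to be particular to HCT8 by the main test. The 327 genes are a smaller share than the 0.05 expected if no gene differed, so they are no sign of a difference. With so little to estimate the spread from, the 0 calls do not show the lines to respond alike either. The adjusted p was 1 for MYC, H1F0, DPYSL3 and VGF, with interaction log2 differences of -1.71, 1.58, 2.09 and -2.39 and standard errors of 0.53, 0.50, 0.54 and 0.59. DESeq2 called 5 genes, all lower in HCT8 relative to the other lines: COL1A2, COL6A3, VIM, CXCR4 and TRNP.

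The first 4 of those 5 genes were low in HCT8 in both conditions. VIM, the intermediate filament of mesenchymal cells, had 54 counts untreated and 10 under hypoxia in HCT8 (-2.15), 87 and 604 in DLD1 (2.66) and 324 and 1142 in HCT116 (2.09). COL1A2, a chain of type I collagen, had 66 and 21 counts in HCT8 (-1.41), 40 and 658 in DLD1 (3.89) and 49 and 724 in HCT116 (4.14). COL6A3, a chain of type VI collagen, had 37 and 4 counts in HCT8 (-2.84), 21 and 351 in DLD1 (3.90) and 41 and 404 in HCT116 (3.56). These 3 genes were more than 2-fold lower in HCT8 and more than 2-fold higher in both other lines. CXCR4, a chemokine receptor, had 6 and 0 counts in HCT8, 0 and 3 in DLD1 and 18 and 1681 in HCT116, so that its difference rested on HCT116. In edgeR's test their adjusted p-values were 0.642 (CXCR4), 0.95 (COL1A2), 0.95 (COL6A3) and 1 (VIM).

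Stromal and other cell type markers were also higher in DLD1 and HCT116 under hypoxia. Over the 16 markers the summed counts were 747 and 893 in HCT8, 568 and 2271 in DLD1 and 1178 and 4142 in HCT116. COL1A2 is on that list, and without it the sums were 681 and 872, 528 and 1613, and 1129 and 3418. Of the markers with 50 or more counts, 4 of 5 were at least 2-fold higher in DLD1 and 4 of 5 in HCT116. In HCT8 0 of 6 were at least 2-fold higher and 2 (LYZ and COL1A2) at least 2-fold lower. Over all genes kept, 5.77% in DLD1, 12.1% in HCT116 and 9.16% in HCT8 were at least 2-fold higher, and 6.38% in HCT8 lower. COL1A2 reached 50 counts in DLD1 and HCT116 only under hypoxia, so the filter itself adds to the higher counts there. Of 10 mesenchymal markers 4 reached 50 counts in HCT8, and VIM was the 1 past 2-fold. FN1 (fibronectin) had 14 and 21 counts in HCT8, and TWIST1 and CDH2, defining mesenchymal genes, had at most 1. The DLD1 and HCT116 hypoxia libraries are also those with the second run label, and the part of either in the difference was not tested.

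Genes that moved in both other lines and not in HCT8 were fewer. There were 23 higher genes (0.179% of 12868) and 10 lower ones (0.0777%). AKR1C3, an aldo-keto reductase of steroids, had 1661 and 1149 counts in HCT8 (-0.31), against 1.59 in DLD1 and 2.07 in HCT116. PARN, a poly(A) ribonuclease, had 613 and 456 (-0.21), SNAI3 had 281 and 262 (0.12), ANKRD22 had 53 and 63 (0.47), and the matrix genes FBN1 (89 and 108, 0.50) and COL3A1 (56 and 44, -0.12) completed the 6 named by rule. On the lower side SLPI, a secreted protease inhibitor, had 3550 and 2537 counts in HCT8 (-0.26) against -1.15 in DLD1 and -1.22 in HCT116. NAPRT, TAF15, RASIP1, LINC01311 and LOC100287042 had HCT8 ratios between -0.49 and 0.22.

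Opposite changes past 2-fold were rarer still: 4 genes were higher in HCT8 and lower in both other lines (0.0311%), and 3 were lower in HCT8 and higher in both (0.0233%). The first were ADAM11, FAM129A, SCAMP3 and LOC105372580, all with at most 353 counts in HCT8. FAM129A (NIBAN1, a stress-response protein) had 38 and 70 counts in HCT8 (1.09), 1536 and 526 in DLD1 (-1.68) and 2919 and 776 in HCT116 (-1.64). The second were VIM, COL1A2 and KIAA1024, the last with 64 and 25 counts in HCT8 (-1.12), while COL6A3 was under the minimum of 50 counts in HCT8 and was not counted here.

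Another 783 genes reached 50 counts in HCT8 and in neither library of either other line, so that their change there was thinly counted. Of these 282 were at least 2-fold higher and 63 at least 2-fold lower in HCT8, beside 9.16% and 6.38% of all genes kept. Some reached 50 counts only in the library where they were higher, so the filter itself adds to these counts. CHRNA4, a nicotinic acetylcholine receptor subunit, had 15 and 370 counts in HCT8 (4.80) and 0 in all 4 libraries of the other lines. EDN2, the vasoconstrictor endothelin 2, had 35 and 479 (3.98), ALOX15B, a lipoxygenase, had 14 and 200 (4.01), LY6D, a marker of squamous differentiation, had 86 and 493 (2.73), and ALPPL2, a placental-type alkaline phosphatase with near-identical relatives, had 1355 and 7305 (2.65). Where the other lines held reads, several of these genes were higher there too. EDN2 had 8 and 47 counts in DLD1 (2.35) and 1 and 8 in HCT116 (2.78). ALPPL2 had 4 and 45 in DLD1 (3.21) and 10 and 21 in HCT116 (1.31). LY6D had 1 and 10 in DLD1 (2.68) and 5 and 15 in HCT116 (1.77), and ALOX15B had 1 and 0 in DLD1 and 9 and 34 in HCT116 (2.13). These genes were chosen after their values were seen.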

How the data were processed

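The authors deposited raw counts of reads per gene, without normalization, for 8 libraries of total RNA depleted of ribosomal RNA. The study's methods name GRCh37.p13, and the submitters' processing notes name HISAT2 2.0.4 and GRCh38; the counter, strand and handling of reads with several matches are not given in the sources used here. Groups came from the sample labels, with 1 library per line and treatment.

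Total counts were 45519306 to 57374239, so that 3 counts, the floor, corresponded to 0.0523 to 0.0659 CPM. Counts were scaled with TMM factors from the 6 CRC libraries (edgeR 4.0.16, R 4.3.3), 0.5 was added, and intervals came from SciPy 1.17.1. The interaction test (glmQLFit, glmQLFTest, Benjamini-Hochberg) kept genes counted 10 times or more in 2 or more libraries, with the cell line as block because both libraries of a pair come from 1 line. Procedures were tested on simulated data. Alternatives included DESeq2 1.42.0 and limma 3.58.1.

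Named genes are the 3 markers, list genes, the 12 with the farthest interval bound each way (at least 200 counts in the higher library), the 10 with the largest ratio each way in HCT8 alone, and the 6 each way moved in the other lines. Members and lists were chosen with earlier results of these data known. Promoters came from RefSeq.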

Additional observations from a re-analysis of the deposited data

Results flagged for a closer look

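Genes with changes past 2-fold in opposite directions, all in HCT8 against both DLD1 and HCT116, were picked out from groups of 1 library each, so that the differences were not tested by this comparison. In HCT8 the log2 ratios were 1.05 for ADAM11 (199 and 353 counts), 1.09 for FAM129A (38 and 70), 1.09 for SCAMP3 (36 and 66) and 1.80 for LOC105372580 (71 and 213), each lower in both other lines. They were -2.15 for VIM (54 and 10 counts), -1.41 for COL1A2 (66 and 21) and -1.12 for KIAA1024 (64 and 25), each higher in both other lines. In edgeR's interaction test none of the 7 passed, with adjusted p-values of 0.95 for COL1A2 and 1 for the others. With 38 counts or fewer in at least 1 HCT8 library, FAM129A, SCAMP3, VIM, COL1A2 and KIAA1024 rest on few reads.

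The untreated libraries of NCM460 and HIEC6, the lines that the paper gives as normal, enter no comparison of the report. They held the markers of the hypoxia response as well. UCA1 had 1725 counts in NCM460 and 1212 in HIEC6, against 240 in untreated HCT8. NDRG1 had 29922 counts in NCM460 and 2367 in HIEC6, against 2586 in untreated HCT8. ANGPTL4 had 162 counts in NCM460 and 494 in HIEC6, against 184 in untreated HCT8. Untreated HCT8 thus had the lowest count of UCA1 of these 3 lines, and the NDRG1 count of NCM460 was above that of untreated HCT8 but below the 53506 of HCT8 under hypoxia. How far NCM460 and HIEC6 stand for normal epithelium was not tested. CSPG4 and CHST15 had 3058 and 7410 counts in NCM460, 3513 and 6711 in untreated HCT116, and 21 and 16 in untreated HCT8. UCA1 and NDRG1 were less alike, with 5064 and 7827 counts in untreated HCT116. HIEC6 held 69375 counts of VIM.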

How the results depend on the processing

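The counts of genes at least 2-fold higher and lower in HCT8 (1394 and 970) stayed within 1.5 times under the other scalings, and depended on the count minimum: 2124 were higher at a minimum of 20, and 696 higher and 631 lower at 200. With the counting-interval bound past 2-fold they were 834 and 555. The share of higher among all calls was 59.0% with TMM and 58.0% to 65.8% with the other scalings.

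The counts for HCT8 alone (70 higher, 111 lower) and for both other lines without HCT8 (23 higher, 10 lower) moved more. With total counts they were 71 for lower in HCT8 alone, 12 for higher in the others and 16 for lower in the others, and 49 of the 70 and 54 of the 111 genes were shared. In the order higher and lower in HCT8 alone, higher and lower in the others, a minimum of 200 gave 23, 70, 7 and 1, and the interval bound 21, 52, 9 and 3. A minimum of 20 gave 112 for higher in HCT8 alone, and 41 and 26 for the others. A no-change window of 0.25 gave 15, 26, 8 and 4, and one of 1 gave 241, 352, 76 and 25. Without DLD1 or without HCT116, which leaves 1 other line, the ranges were 216 to 263, 197 to 490, 140 to 483 and 50 to 764.

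The interaction test, whose replicate block is the cell line, called 0 genes with the block and 0 without it, where 32 had an unadjusted p under 0.05. Upper-quartile scaling, limma-trend and a minimum of 50 counts in every pair also gave 0, with 345, 340 and 138 at an unadjusted p under 0.05. Without a filter it called 7 (COL1A2, COL6A3, VIM, CXCR4, CSPG4, TMEM158 and LOC105377604), and DESeq2 called 5. The causes were not tested. Leaving out a line left no residual degree of freedom and no test. The counts given here at an unadjusted p under 0.05 were each a smaller share than 0.05 of the genes tested. Every HCT8 list median moved by less than 0.1 under total-count and DESeq2 scaling, the scaling of ribosome biogenesis having been chosen after seeing the data. A scaling moves all ratios of a pair alike, so this follows from the small HCT8 shift. With total counts the HCT116 ratios, and with them its list medians, were lower by 0.36. In counts of changed signs, also added then, total counts turned 1 of 450 list genes (TOP2A), DESeq2 scaling 1 (ND5) and upper-quartile scaling 7 (CTH, MKI67, CENPE, DUSP1, PGD, FTL and ND5), all with ratios within 0.05 of 0. At 50 to 100 counts, ratios under about 0.59 are within counting error.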

Other observations

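Secreted and surface mucins and trefoil factors, which coat the gut lining, were higher in HCT8 under hypoxia at low levels. Of 17 genes 9 reached 50 counts, of which 6 were at least 2-fold higher and 0 at least 2-fold lower. MUC1 had 11 counts untreated and 119 under hypoxia (log2 ratio 3.60, interval 2.77 to 4.70), TFF3 had 71 and 215 (1.81), and MUC5B had 542 and 1227 (1.40). MUC2, the main gel-forming mucin of the colon, had 6 and 2 counts. Among genes of the matrix 6 of 15 were at least 2-fold higher and 0 at least 2-fold lower, LAMB3, a laminin chain of the basement membrane, with 3157 and 7472 counts (1.46). Long noncoding RNAs linked to hypoxia or the nucleus had 7 of 12 at least 2-fold higher and 0 at least 2-fold lower, with the imprinted H19 at 3391 and 16695 counts (2.52) and NEAT1, the scaffold of paraspeckles, at 12178 and 49660 (2.25). These counts stand beside 9.16% of all genes kept at least 2-fold higher and 6.38% at least 2-fold lower.

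Stress and inflammatory lists had genes past 2-fold in 1 or both directions. Over all genes kept 9.16% were at least 2-fold higher and 6.38% at least 2-fold lower, and several shares below were near these. Of 17 NF-kB targets and chemokines with 50 or more counts 1 was at least 2-fold higher and 4 at least 2-fold lower, the neutrophil chemokine CXCL8 with 117 and 22 counts (-2.16) and CXCL1 with 121 and 34 (-1.60). Metallothioneins, which bind zinc and copper, had 3 of 7 at least 2-fold lower and 0 at least 2-fold higher, and MT1A had 1208 and 321 counts (-1.69), but their sequences are close and reads may be shared among them. Of 20 p53 targets 1 was at least 2-fold higher (TP53INP1, 1.07) and 3 at least 2-fold lower (AEN, SPATA18 and TIGAR at -2.58, -1.48 and -1.17), while CDKN1A, the p21 inhibitor of the cell cycle, had 6082 and 9792 counts (0.91). NRF2 targets had 3 of 19 at least 2-fold lower and 0 at least 2-fold higher, with NQO1 at 28631 and 11201 counts (-1.13). Interferon-stimulated genes had 3 of 16 at least 2-fold higher and 1 at least 2-fold lower, epithelial markers 1 of 12 at least 2-fold higher (KRT19, 1.63), and intestinal markers 1 of 9 at least 2-fold lower (LGR5, the intestinal stem cell receptor, 311 and 128 counts, -1.06).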
